A study of Mus musculus with 13 samples.

Results

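Gene expression was compared between liver tumours of mir-122 knockout mice and livers of wild-type control mice, all at 14 months of age and on a B6/129 background. The comparison took the 5 arrays labelled as knockout tumours and the 3 labelled as control livers at this age, 8 of the 13 arrays of the series, by their labels alone. The remaining 5 arrays, 3 knockout tumours and 2 control livers at 11 months, shared the same model and gave the same comparison at the younger age. Each array was an Affymetrix one-colour expression array hybridised with total RNA of frozen tissue. Arrays are numbered within a group, and values are given in the order of controls 1 to 3 and tumours 1 to 5. A level is the deposited log2 value after robust multi-array averaging, so a step of 1 is a doubling, and 18193 genes were measured by 1 probe set each, the brightest on average over the 13 arrays. A gene was called higher or lower when its adjusted p (limma, Benjamini-Hochberg over all genes) was under 0.05.

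All knockout samples were tumours and all wild-type samples were liver, and no knockout liver outside a tumour entered the series, so genotype and tumour cannot be told apart. The labels do not say how the mir-122 allele was made or whether the control livers came from littermates. The design text counts 3 control mice at 14 months and 2 at 11 months, but nothing says that the 5 tumours came from 5 animals. The p-values therefore measure the spread between these samples, part of which may be technical. The array carried no probe set used here for miR-122, so the knockout was read only through its published targets.

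miR-122 is the most abundant microRNA of hepatocytes. A microRNA guides a silencing complex to short matches in messenger RNAs, which are then degraded or translated less, so the messages of its targets tend to be higher where it is lost. In the liver miR-122 is known for holding down genes of fetal liver, for maintaining lipid and cholesterol metabolism, and for restraining inflammation, fibrosis and tumour formation. Hepatocytes secrete most plasma proteins, detoxify drugs through cytochrome P450 enzymes and divide their metabolic work along the axis from the portal to the central vein. Liver tumours often regain fetal genes, such as alpha-fetoprotein, and lose parts of this programme.

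Hepatocyte markers were present on every array. Alb, the gene of serum albumin, read 14.63, 14.65 and 14.66 in the controls and 14.66, 14.48, 14.47, 14.67 and 14.78 in the tumours, and Ttr, encoding the thyroid hormone carrier transthyretin, read between 14.28 and 14.47 in all 8 samples. Hnf4a, the transcription factor that maintains hepatocyte identity, had the same mean in both groups (difference -0.02 ± 0.17 SE, adjusted p = 0.954). Alb and Ttr read near the highest values of the arrays (14.58 to 14.84 at this age), where a change may not be seen. Other hepatocyte genes were lower: of 22 hepatocyte secreted and surface proteins 8 fell and none rose (1 fell without control 3), and of 22 hepatocyte transcription factors 2 fell and none rose (none fell without control 3).

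2 of the 8 arrays stood apart within their groups. Tumour 4 lay at 1.5 on the first principal component of the 13 arrays, which carried 49.5% of the variance, while the other 4 tumours lay between 67.7 and 76.3 and the 3 controls between -76.3 and -65.3. It resembled tumour 1 of the 11-month group more (r = 0.9787) than any other 14-month tumour (r of 0.9595 to 0.9648). Control 3 was nearly the same as control 1 of the 11-month group (r = 0.9948, 63 probe sets more than 2-fold apart), although the labels give them different ages, whereas other pairs of controls differed at 485 to 1315 probe sets. Control 3 also differed from the other controls in the 20 immediate early genes, which cells switch on within minutes of a stimulus: their mean level was 6.72, 6.64 and 9.73 in controls 1 to 3 and between 7.55 and 8.31 in the tumours. Fos, chosen as an example after its values were seen, read 6.34, 5.86 and 12.73 in the controls. Because of these 2 arrays, counts for many gene lists are also given below without one or both of them. Without tumour 4 the share of all genes called was 10.7% higher and 8.70% lower, and without control 3 it was 3.97% higher and 2.88% lower. With all samples it was 8.37% higher and 6.88% lower, and the count of every list below is to be read against these shares.

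At 14 months, 2775 of 18193 genes (15.3%) differed between tumours and control livers. Of these, 1523 (8.37% of all genes) were higher in tumours and 1252 (6.88%) were lower. Changes of at least 2-fold were made up of 835 rises (4.59% of all genes) and 364 falls (2.0%), so the larger changes were mostly upward. For 4946 genes (27.2%) the 5 tumours did not overlap the 3 controls, and 1446 of the higher and 1193 of the lower calls were among them. The median log2 difference of all genes was -0.06. The split between directions depended on scaling: 54.9% of calls were higher as deposited, 44.5% after a further quantile normalisation and 61.2% after each array was shifted to a common median. Without control 1 or control 2 the count fell to 922 or 937 calls, without control 3 to 1246 and without tumour 2 to 1843, and 685 genes were called in every one of the 8 fits that left out 1 array.

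**Figure D1:**
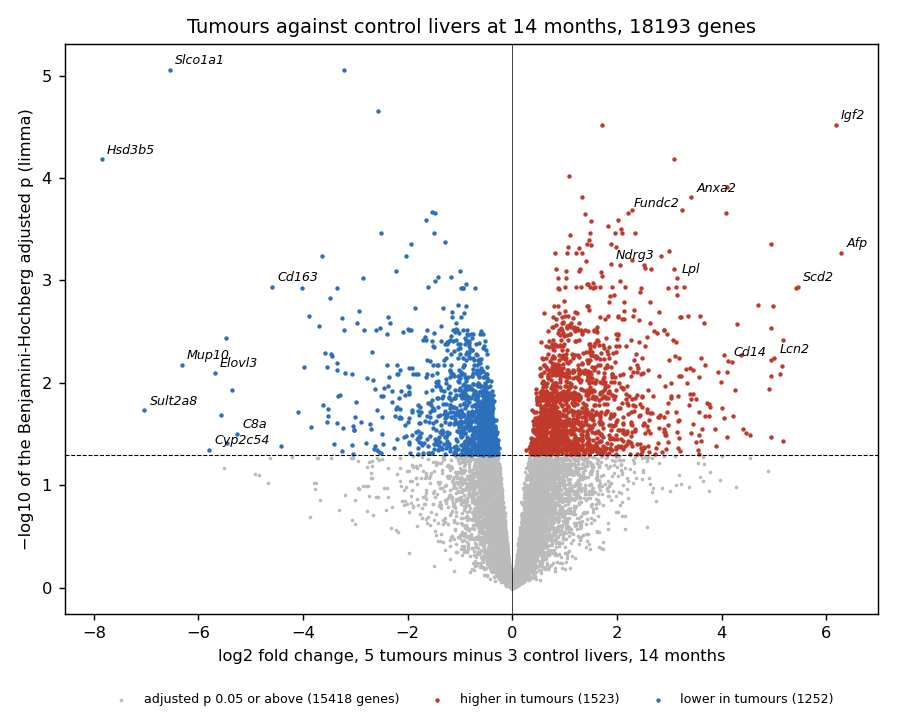
Log2 fold change of tumours over control livers at 14 months (x axis) against limma's adjusted p on a -log10 scale (y axis), 1 point a gene over 18193 genes, with the genes called higher (1523) and lower (1252) in colour, the threshold as a dashed line and 17 genes named. Hsd3b5 and Sult2a8 lie farthest to the left (-7.85 and -7.04) and Afp and Igf2 farthest to the right (6.28 and 6.18).

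The largest rise was that of Afp, the gene of alpha-fetoprotein, a carrier protein of fetal plasma that adult liver almost stops making. Its level was 5.48, 5.26 and 6.00 in the controls and 12.26, 11.87, 11.41, 11.58 and 12.18 in the tumours. Every tumour was thus far above every control, with a difference of 6.28 ± 0.68 (SE), or 77.6-fold (adjusted p = 0.000534). Igf2, an imprinted fetal growth factor, read 6.70, 6.41 and 6.67 in the controls and 11.72, 12.73, 13.41, 12.79 and 13.21 in the tumours. It rose 72.3-fold (log2 6.18 ± 0.41, adjusted p = 3.02e-05). Of the 15 largest rises, 13 were called in all 8 fits that left out 1 array, and all 15 had the same sign at 11 months.

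The other large rises came from several kinds of genes. Scd2, the fatty acid desaturase of fetal and brain tissue, rose 44.0-fold, from levels of 5.70 to 6.45 in controls to 10.66 to 11.90 in tumours (adjusted p = 0.00115). Scd1, its adult liver relative, read 13.98, 12.32 and 12.64 in controls and 12.65 to 13.80 in tumours, with a difference of 0.30 ± 0.40 (adjusted p = 0.616). Sox4, a transcription factor of progenitor cells, rose 42.7-fold (log2 5.42 ± 0.69, adjusted p = 0.00118), although 2 of its 8 probe sets had the opposite sign. Cbr3, a carbonyl reductase, rose 36.1-fold (adjusted p = 0.00382), Rgs2, a brake on G protein signalling, 35.6-fold (adjusted p = 0.00679), and Prom1, the surface protein CD133 of progenitor cells, 30.9-fold (adjusted p = 0.00288). Rragd, a GTPase that signals amino acids to mTORC1 at the lysosome, read 4.77, 4.62 and 4.21 in controls and 10.13, 9.36, 10.21, 7.65 and 10.05 in tumours (log2 4.95 ± 0.51, adjusted p = 0.000442). Lcn2, the iron-binding acute-phase protein lipocalin 2, read 7.22, 6.13 and 9.98 in controls, with control 3 the highest, and 12.18 to 13.19 in tumours (adjusted p = 0.0057). Ly6d, Cdc42ep5, Elapor1 and Esm1, the last a proteoglycan of sprouting endothelium, rose by 4.94 to 5.11 on the log2 scale. The other probe set of Cdc42ep5 was at -0.35.

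Tumour 4 stood far below the other tumours in several of the 15 rises, among them Il33, Slpi and Rragd. Il33, an alarm cytokine released by damaged cells, read 4.93, 5.48 and 5.42 in controls and 10.97, 11.61, 11.29, 6.51 and 11.90 in tumours (log2 5.18 ± 1.46, adjusted p = 0.037). Slpi, a secreted protease inhibitor, read 7.01 to 7.24 in controls, 8.38 in tumour 4 and 12.86 to 13.23 in the other 4 tumours (adjusted p = 0.0334). Both calls held in only 1 of the 8 fits that left out an array.

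**Figure D2:**
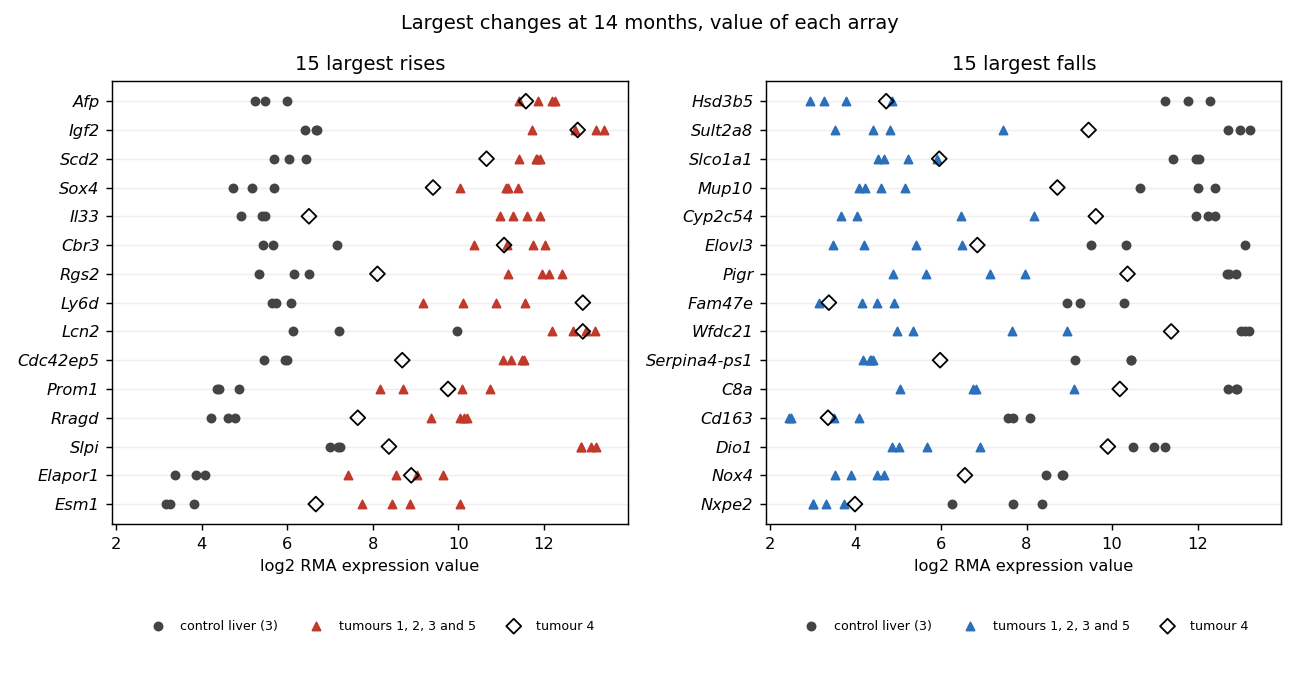
Deposited log2 level (x axis) of the 15 genes with the largest rises (left) and the 15 with the largest falls (right) in each sample at 14 months, 1 row a gene, with circles for the 3 control livers, triangles for tumours 1, 2, 3 and 5 and open diamonds for tumour 4. The tumours and controls do not overlap for any gene shown, since that was part of the choice, and among the rises tumour 4 lies nearest the controls for Il33 and Slpi.

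Fetal liver and liver tumour markers were higher as a group. Of 27 measured, 14 rose and none fell, with a median log2 difference of 2.37 against -0.06 for all genes, and the count was 16 without tumour 4 and 12 without control 3. Their mean level was 5.67, 5.36 and 5.88 in the controls and 8.29, 8.38, 8.05, 7.78 and 8.45 in the tumours. Among secreted proteins, besides Afp and Igf2, Golm1, a Golgi protein shed into serum in liver cancer, read 6.39, 6.34 and 6.91 in controls and 10.28, 9.57, 8.98, 9.66 and 10.60 in tumours, a 9.69-fold rise (adjusted p = 0.00115). Among surface proteins, Cd24a, a glycoprotein of progenitor cells, rose by 4.90 ± 1.01, Cd9, a tetraspanin, by 3.39 ± 0.72, Tspan8, another tetraspanin, by 3.56 ± 0.83, and Cd44, the hyaluronan receptor, by 2.37 ± 0.40 on the log2 scale. Of the 5 probe sets of Tspan8, 1 passed as a rise and the lowest was at -0.48. Their mean did not pass (0.92, adjusted p = 0.0931, limma). Of the 10 surface proteins 7 rose. Tff3, a mucosal repair peptide, read 6.66, 5.69 and 6.03 in controls and 8.76, 9.31, 10.25, 6.70 and 8.59 in tumours, and missed the threshold (adjusted p = 0.0531).

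Not every fetal or tumour marker shared in this. Gpc3, a cell-surface proteoglycan and diagnostic antigen of human hepatocellular carcinoma, read 4.14, 4.48 and 4.55 in controls and 4.33, 4.48, 4.37, 5.03 and 4.37 in tumours, with overlapping groups (difference 0.13 ± 0.17, adjusted p = 0.613). Igf2bp1, Igf2bp3 and Lin28b, which bind RNA, and Hmga2, a chromatin protein, did not pass and had differences between -0.21 and 0.29. Lin28b, which blocks maturation of let-7 microRNAs in fetal liver, read 2.27 to 2.50 in all 8 samples. Dlk1, an imprinted surface protein of hepatoblasts, had a difference of 0.67 ± 0.38 (adjusted p = 0.243), Epcam of -0.17 ± 0.14 and Sox9, a factor of bile duct and progenitor cells, of 0.08 ± 0.43. The 2 probe sets of Epcam differed in sign, at -0.17 and 1.01, and their mean of 0.42 did not pass (adjusted p = 0.512, limma). Spink1, a trypsin inhibitor, was high in tumours 1, 2 and 5 (7.94, 8.55 and 8.30) and within the control range of 4.07 to 5.65 in tumours 3 and 4 (5.42 and 4.30).

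Of 19 imprinted genes measured, 6 rose and none fell (median log2 0.72), and 4 rose without control 3. Besides Igf2, Grb10, an adaptor that dampens insulin and IGF receptor signalling, read 6.39, 5.96 and 6.01 in controls and 7.49, 7.61, 7.93, 6.95 and 7.84 in tumours (2.72-fold, adjusted p = 0.00863). Impact, a regulator of translation under stress, rose by 1.27 ± 0.25 and Sgce, epsilon-sarcoglycan, by 1.74 ± 0.52 on the log2 scale. In the IGF and growth hormone axis, Igf2r, the receptor that clears IGF2, rose 1.49-fold (adjusted p = 0.024). Igfals, the plasma partner that holds IGF in a long-lived complex, read 9.75, 10.01 and 9.68 in controls and 8.41 to 9.08 in tumours, a 2.22-fold fall (adjusted p = 0.00227). Ghr, the growth hormone receptor, fell 2.10-fold with an adjusted p of 0.0499, at the threshold.

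Published targets of miR-122 were mostly higher in the knockout tumours. Of 36 measured, 22 rose and none fell, against a share of 8.37% of all genes called higher, with a median log2 difference of 1.09. The count was 21 without tumour 4 and 15 without control 3. At 11 months 9 rose, where 1.31% of all genes were called higher. Their mean level was 7.27, 7.32 and 7.51 in the controls and between 8.47 and 8.65 in the tumours, and tumour 4 (8.48) lay among the other 4. Some of these targets were first reported from miR-122-deficient mouse liver, so the list is not independent evidence of its direction.

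The clearest target by its test was Fundc2, a mitochondrial outer membrane protein, at 6.46, 6.73 and 6.62 in controls and 8.93, 8.86, 9.24, 8.37 and 8.64 in tumours. It rose 4.62-fold (log2 2.21 ± 0.20, adjusted p = 0.000219), with no overlap. Its 3 probe sets had log2 differences of 0.47 to 2.21, and 1 passed when all probe sets were tested. The mean of the 3 rose by 1.25 (adjusted p = 0.00682, limma). Aldoa, the aldolase of muscle and fetal liver, a target used to test miR-122 inhibition, read 8.84, 9.22 and 9.57 in controls and 12.71, 12.55, 12.92, 11.66 and 11.87 in tumours and rose 8.77-fold (adjusted p = 0.00115). All 5 of its probe sets had positive log2 differences, of 1.82 to 3.22. Slc35a4, a sugar transporter of the Golgi, rose 4.02-fold (adjusted p = 0.000259), Ndrg3, a lactate-stabilised growth protein, 3.67-fold (adjusted p = 0.000691) and Rell1, a receptor-like membrane protein, 4.04-fold (adjusted p = 0.00227).

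Several targets with a known role in liver disease were among those that rose. Ccng1, cyclin G1, a p53-induced regulator, read 8.42, 8.31 and 9.03 in controls and 9.85 to 10.80 in tumours (3.0-fold, adjusted p = 0.0041). P4ha1, which hydroxylates proline in collagen, rose 3.38-fold (adjusted p = 0.00451), Iqgap1, a scaffold of the cytoskeleton, 2.81-fold, Vim, the mesenchymal filament vimentin, 4.52-fold, and Tgfb1, the fibrosis-promoting cytokine, 1.76-fold. The other probe set of Tgfb1 had a log2 difference of -0.06, and the mean of both did not pass (0.38, adjusted p = 0.102, limma). Of the 7 probe sets of Iqgap1, 5 had a positive difference, 3 of them passing when all probe sets were tested, and the lowest was at -0.55. Bckdk, the kinase that switches off branched-chain amino acid breakdown, rose 1.87-fold (adjusted p = 0.00301), Gys1, glycogen synthase of muscle, 2.22-fold, and the metalloproteases Adam10 and Adam17 rose 1.71-fold and 1.75-fold.

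The 14 targets that did not pass included Slc7a1, the cationic amino acid transporter for which miR-122 repression was first described in liver. It read 5.88, 5.72 and 5.74 in controls and 8.36, 9.56, 7.34, 6.02 and 7.93 in tumours: all 5 tumours were above the controls, tumour 4 only just, and the adjusted p was 0.0565. Klf6, a transcription factor induced by injury, read 5.93, 5.89 and 8.88 in controls and 8.06 to 8.83 in tumours, so that control 3 alone lay above all tumours (difference 1.51 ± 0.71, adjusted p = 0.159). Ccl2, a chemokine that recruits monocytes, read 5.10 to 5.72 in controls and 5.95 to 7.12 in tumours (adjusted p = 0.25). Igf1r, Srf, Cux1, Foxp1, Rhoa and Wnt1 overlapped between the groups, with differences between -0.29 and 0.22.

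The 15 largest falls included 4 genes of the list of male-biased liver genes, among them Hsd3b5, Slco1a1 and Elovl3. Hsd3b5, a steroid-metabolising enzyme of male liver, read 12.29, 11.77 and 11.23 in controls and 2.94, 3.26, 3.79, 4.72 and 4.85 in tumours. It fell 231-fold (log2 -7.85 ± 0.58, adjusted p = 6.55e-05), and every tumour lay far below every control. Slco1a1, an organic anion transporter, read 12.04, 11.95 and 11.43 in controls and 4.66, 5.22, 4.54, 5.96 and 5.91 in tumours and fell 93.6-fold (adjusted p = 8.8e-06). Elovl3, a fatty acid elongase, read 13.11, 10.32 and 9.51 in controls, a wide range, and 3.47 to 6.85 in tumours (adjusted p = 0.00796). Mup10, a major urinary protein, read 12.40, 12 and 10.66 in controls and 4.09, 4.60, 4.23, 8.72 and 5.17 in tumours (80.2-fold, adjusted p = 0.00661). Its family is nearly identical in sequence, so a probe set may read several members.

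Of 15 male-biased liver genes, 11 fell and none rose, against 6.88% of all genes called lower, with a median log2 difference of -2.93, and 6 fell without control 3. The labels give no sex for any sample. Egfr, the receptor of epidermal growth factor, abundant in male liver, fell 4.71-fold, from 11.54 to 11.59 in controls to 8.87, 9.36, 9.86, 8.30 and 10.29 in tumours (adjusted p = 0.0178). Ugt2b1, a glucuronosyltransferase, fell by 2.26 and Cyp7b1, an oxysterol hydroxylase, by 1.80 on the log2 scale. Of 11 female-biased genes, 1 rose (none without control 3), Cyp17a1, a steroid hydroxylase, at 8.59, 8.08 and 6.85 in controls and 11.68, 12.63, 12.02, 9.35 and 12.28 in tumours (13.5-fold, adjusted p = 0.0212). Cyp2b9 read 3.55 to 5.0 in controls and 7.33 to 11.22 in tumours, above all controls, with an adjusted p of 0.0536.

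Other deep falls were Sult2a8, a bile acid sulphotransferase (132-fold, adjusted p = 0.0185), Pigr, which carries antibodies into bile (47.3-fold, adjusted p = 0.0206), and Dio1, the deiodinase that activates thyroid hormone (21.6-fold, adjusted p = 0.0413). Pigr showed how the tumours differed among themselves: it read 12.68 to 12.89 in controls and 4.88, 7.14, 5.66, 10.36 and 7.97 in tumours, with tumour 4 the least changed. Fam47e, Serpina4-ps1 and Nxpe2 fell by 5.47, 5.35 and 4.02 on the log2 scale, and in all 3 genes every tumour lay below every control. Of the 15 largest falls, 7 were called in all 8 fits that left out 1 array. The calls of Cyp2c54, Wfdc21 and Dio1 held in only 1 of the 8.

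Secreted and surface proteins of hepatocytes fell in part. Of 22 measured, 8 fell and none rose (median -0.64), 6 of them among 9 surface proteins, and 1 fell without control 3 and 12 without tumour 4. Asgr1 and Asgr2, the 2 chains of the asialoglycoprotein receptor that clears glycoproteins from plasma, fell 2.85-fold (adjusted p = 0.0246) and 3.56-fold (adjusted p = 0.0354). Asgr1 read 11.89 to 11.94 in controls and 10.20, 9.93, 10.57, 11.38 and 9.94 in tumours. Fetub, a secreted protease inhibitor, fell 3.79-fold (adjusted p = 0.0185). Slc10a1, the sodium-dependent bile acid importer, read 12.24 to 12.32 in controls and 5.34, 7.97, 8.08, 10.75 and 8.13 in tumours, all below the controls, with an adjusted p of 0.0528. All 8 calls of this list were lost in at least 1 of the fits that left out an array.

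Of 34 genes of complement and coagulation, the plasma cascades of innate immunity and clotting, 15 fell and none rose (median -0.86), and 5 fell without control 3. Their mean level was 11.80 to 11.82 in the 3 controls and 10.54, 10.63, 10.48, 11.12 and 10.78 in the tumours. Subunits of the membrane attack complex had some of the deepest falls. C8a read 12.90, 12.92 and 12.70 in controls and 5.04, 6.74, 6.83, 10.18 and 9.10 in tumours (38.4-fold, adjusted p = 0.0312), C8b fell 11.7-fold (adjusted p = 0.0241) and C6 fell 6.88-fold (adjusted p = 0.00903). In coagulation, Klkb1, the gene of plasma prekallikrein, fell 8.32-fold (adjusted p = 0.0405). The acute-phase genes Apcs, serum amyloid P, and Serpina3n fell 3.41-fold and 3.03-fold, while Cd14, the endotoxin co-receptor, rose 17.4-fold from 6.48, 6.64 and 8.32 to between 10.26 and 11.98 (adjusted p = 0.0061).

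Of 22 hepatocyte transcription factors measured, 2 fell and none rose (median -0.42), near the 6.88% of all genes called lower, with 6 falls without tumour 4 and none without control 3. Cebpa, which drives hepatocyte differentiation, read 11.25, 11.55 and 11.39 in controls and 10.40, 9.66, 10.53, 10.78 and 10.66 in tumours (1.98-fold lower, adjusted p = 0.0401). Nr1h4, the bile acid receptor FXR, fell 1.86-fold (adjusted p = 0.0433). Foxa1, a pioneer factor, read 7.73 to 8.87 in controls and 4.47, 4.78, 4.81, 7.55 and 6.16 in tumours, below every control, with an adjusted p of 0.0644. Nr1i3, the xenobiotic receptor CAR, read 9.38 to 9.95 in controls, 9.11 in tumour 4 and 6.69 to 7.90 in the other tumours (adjusted p = 0.0679). Foxa2, Nr1h3 and Zhx2, a repressor of Afp after birth, had differences between 0.02 and 0.28.

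Cytochrome P450 genes divided the tumours. Of 27 measured, 3 fell and none rose with all 5 tumours, 10 fell without tumour 4 and none without control 3. The shares of all genes called lower in the same fits were 6.88%, 8.70% and 2.88%. The mean level of the 27 was 10.70, 10.94 and 10.97 in controls, 11.17 in tumour 4 and 8.66, 9.16, 8.04 and 9.20 in tumours 1, 2, 3 and 5. Cyp2e1, the ethanol-oxidising enzyme of the pericentral zone, read 14.07, 14.17 and 14.03 in controls and 8.79, 12.45, 7.50, 13.89 and 12.76 in tumours, with tumour 4 close to the controls (adjusted p = 0.237). Cyp2c29 read 13.28 to 13.71 in controls and 10.33, 10.62, 6.15, 13.74 and 11.53 in tumours. Cyp2c54, Cyp2c23 and Cyp2c70 passed with all 5 tumours, and fell by 5.80, 3.52 and 2.31 on the log2 scale. Cyp2c genes are similar in sequence, so their probe sets may share signal.

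Conjugation enzymes fell in part: 7 of 14 genes of glucuronidation and sulphation were lower, among them Ugt3a1 (10.1-fold, adjusted p = 0.0134) and Sult5a1 (6.39-fold, adjusted p = 0.00497). Of 18 glutathione transferase genes 3 rose and 1 fell, where 8.37% of all genes rose and 6.88% fell. Without control 3 the falls of both groups together went from 8 to 2, where 2.88% of all genes fell. Gsta2 read 10.28, 10.21 and 11.98 in controls and 12.13 to 13.01 in tumours (3.11-fold, adjusted p = 0.0292).

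Most measured enzymes of cholesterol synthesis were lower in the tumours. Of 17 synthesis enzymes 10 fell and none rose (median -1.80), and the whole list of 27, which adds uptake and regulation, had 11 falls and 1 rise. Its count was 4 falls without control 3 and 12 falls and 3 rises without tumour 4, and 3 of its 12 calls held in all 8 fits that left out 1 array. Idi1, isopentenyl diphosphate isomerase, read 11.87, 12.18 and 12.13 in controls and 7.86, 8.96, 7.94, 9.17 and 10.16 in tumours (9.46-fold lower, adjusted p = 0.0275). Tm7sf2, a sterol reductase, fell 7.89-fold (adjusted p = 0.0153) and Cyp51, lanosterol demethylase, 6.60-fold (adjusted p = 0.0249). The single rise, which did not hold without control 3, was Abcg1, a cholesterol exporter (1.60-fold, adjusted p = 0.0178). The mean level of the list was 10.15 to 10.21 in the controls and 8.60 to 9.29 in the tumours, and tumour 4 (9.15) lay within the range of the other tumours.

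In bile acid metabolism 5 of 30 genes fell and 1 rose, with 10 falls without tumour 4 and 2 without control 3. The shares of all genes called lower in the same fits were 6.88%, 8.70% and 2.88%, and 8.37% were called higher with all samples. Slc27a5, which activates bile acids for conjugation, fell 3.39-fold (adjusted p = 0.017), from 12.53 to 13 in controls to 10.63 to 11.61 in tumours. Abcc4, an export pump of the sinusoidal membrane, rose 16.5-fold, from 5.51, 5.86 and 5.80 to 9.59, 8.53, 9.97, 11.01 and 9.74 (adjusted p = 0.00533), and here tumour 4 was the highest. Lcat, which esterifies cholesterol on plasma lipoproteins, fell 2.49-fold (adjusted p = 0.0162).

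Lipid uptake and droplet genes included 5 rises and 1 fall among 29, where 8.37% of all genes rose and 6.88% fell. Without control 3 there were 2 rises, where 3.97% of all genes rose. Fabp4, a fatty acid carrier of adipocytes and macrophages, read 6.47, 6.07 and 7.07 in controls and 11.03, 10.02, 11.31, 11.73 and 10.48 in tumours (20.8-fold, adjusted p = 0.00533). Lpl, lipoprotein lipase, scarce in adult hepatocytes, rose 8.83-fold, from 9.72, 8.18 and 9.33 to between 11.82 and 12.42 (adjusted p = 0.000948). Cidec, a droplet protein, rose 12.2-fold, from 3.53 to 4.29 in controls to 5.97 to 9.29 in tumours (adjusted p = 0.0365). Cd36, a fatty acid translocase, rose 4.71-fold at the threshold (adjusted p = 0.0499).

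**Figure D3:**
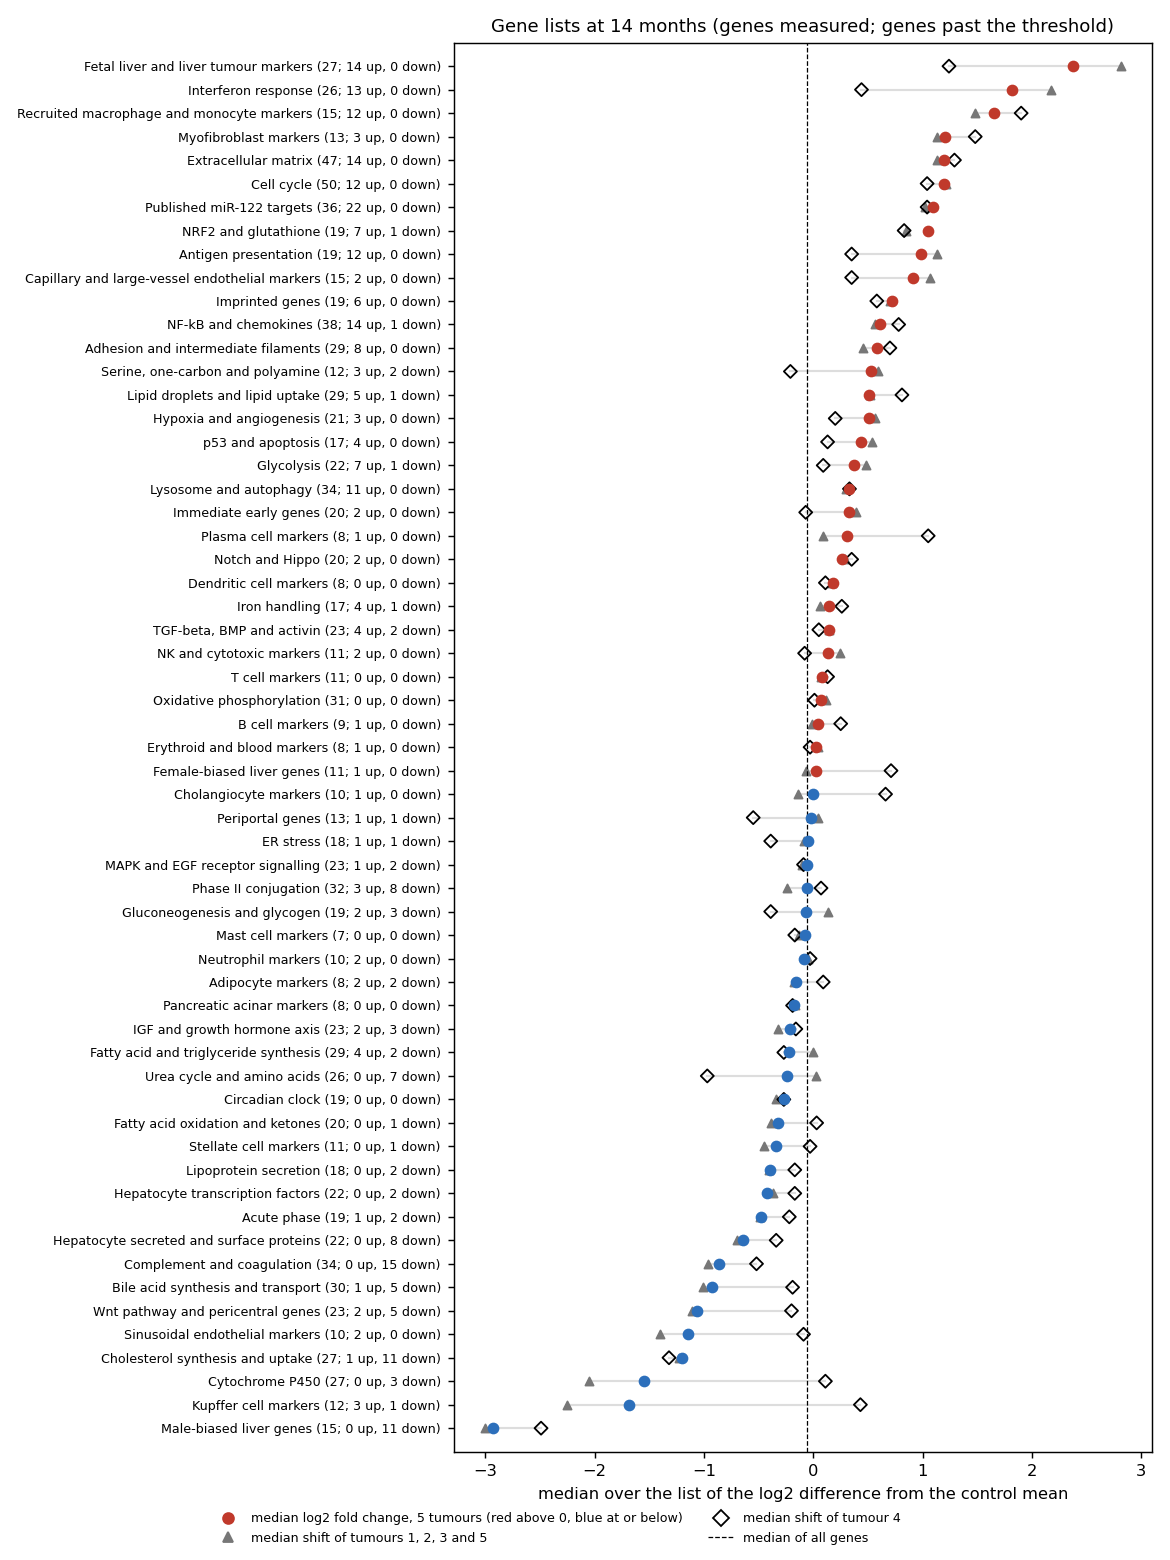
Median over each gene list (rows) of the log2 difference from the control mean at 14 months (x axis), with filled circles for all 5 tumours (red above 0, blue at or below), triangles for tumours 1, 2, 3 and 5 and open diamonds for tumour 4, with the number of genes measured and called beside each list name and the median of all genes as a dashed line. Male-biased genes have the lowest median (-2.93) and fetal liver and liver tumour markers the highest (2.37), and tumour 4 lies to the right of 0 for cytochrome P450 genes (0.11) and Kupffer cell markers (0.43).

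Isoforms of the same glycolytic step moved differently. Pkm, the pyruvate kinase of fetal and dividing cells, read 6.73, 6.78 and 6.59 in controls and 9.91, 8.11, 10.55, 8.47 and 8.91 in tumours (5.63-fold, adjusted p = 0.0257), while Pklr, the adult liver isoform, differed by 0.01 ± 0.41 (adjusted p = 0.987). Hk2, a hexokinase scarce in hepatocytes, rose 4.15-fold (adjusted p = 0.0176). Pfkp, the platelet form of phosphofructokinase, read 5.05 to 5.10 in controls, 5.93 in tumour 4 and 10.10 to 10.90 in the other tumours (adjusted p = 0.0308). For glycogen, Gys1 rose 2.22-fold, whereas Gys2, the liver synthase, fell 2.44-fold (adjusted p = 0.0339) and Ppp1r3b, a liver activator of glycogen synthesis, fell 4.50-fold (adjusted p = 0.0141). Over all 22 glycolysis genes 7 rose (2 without control 3) and 1 fell, the fall being Aldoc (4.09-fold, adjusted p = 0.0332).

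In amino acid metabolism, Otc, which forms citrulline in the urea cycle, read 12.50 to 12.66 in controls and 10.18, 10.03, 10.13, 11.57 and 10.56 in tumours (4.17-fold lower, adjusted p = 0.0255), and 7 of the 26 genes of the urea cycle and amino acid breakdown fell with none higher (6 fell and 3 rose without tumour 4). Psat1, of serine synthesis, rose by 3.58 ± 0.50 on the log2 scale, from 3.65, 3.64 and 3.36 to 8.33, 7.83, 6.34, 5.99 and 7.16 (adjusted p = 0.00224). The folate enzymes split by gene: Mthfd1l rose 3.03-fold (adjusted p = 0.0382) and Shmt2 fell 1.77-fold (adjusted p = 0.0136). Of 31 genes of oxidative phosphorylation none passed in limma's test (2 had an unadjusted p under 0.05), and their median difference was 0.07. The smallest p among them was that of Ndufs3 (0.32 ± 0.13, adjusted p = 0.106).

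Genes that respond to NRF2, the sensor of oxidative stress, included 7 rises and 1 fall among 19, where 8.37% of all genes rose and 6.88% fell. Srxn1, which repairs oxidised peroxiredoxins, read 7.53, 7.88 and 9.30 in controls and 10.90, 10.70, 11.45, 10.30 and 11.71 in tumours (6.86-fold, adjusted p = 0.0214). Gpx3, a secreted peroxidase, rose 5.52-fold (adjusted p = 0.0465), and Cbr3 and Abcc4 above are on the same list. Osgin1, a growth inhibitor induced by oxidative stress, fell 2.80-fold (adjusted p = 0.0396).

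Wnt target and pericentral genes included 5 falls and 2 rises among 23, with 11 falls without tumour 4 and 2 without control 3. The shares of all genes called lower in the same fits were 6.88%, 8.70% and 2.88%, and 8.37% were called higher with all samples. Rnf43, a ubiquitin ligase that limits Wnt receptors and is itself induced by Wnt signalling, read 6.39, 6.34 and 6.72 in controls and 3.64, 4.10, 3.58, 5.06 and 4.17 in tumours (5.18-fold lower, adjusted p = 0.00227). Lgr5, another feedback target, fell 3.17-fold (adjusted p = 0.0234) and Glul, glutamine synthetase of the cells around the central vein, fell 3.90-fold (adjusted p = 0.0485). The mean level of the list was 8.37 to 8.44 in controls, 8.28 in tumour 4 and 6.59 to 7.44 in the other tumours. The rises were Slc1a4, an amino acid transporter (3.15-fold), and Axl, a receptor kinase (1.96-fold).

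Of 50 cell cycle genes measured, 12 rose, none fell and 38 did not pass (median 1.19). None was called at 11 months, where 1.31% of all genes were called higher and 0.610% lower, and the median of the list was 0.48. Of the 12, 8 were among 24 genes of G2 and mitosis. The count was 9 without tumour 4 and 7 without control 3, and 1 of the 12 calls held in all 8 fits that left out 1 array. Mki67, the nuclear antigen of dividing cells, read 4.60, 4.35 and 5.73 in controls and 7.13, 8.09, 6.74, 7.88 and 9.05 in tumours (7.40-fold, adjusted p = 0.0302). Ube2c, of the anaphase-promoting complex, read 4.86, 4.31 and 7.09 in controls and 8.02, 8.20, 8.08, 8.65 and 9.96 in tumours (8.95-fold, adjusted p = 0.0432). Ccnb2, cyclin B2, and Rrm2, the ribonucleotide reductase subunit of S phase, rose 7.55-fold and 6.18-fold. Control 3 was the highest control for all 4 genes, and tumour 5 the highest tumour. Cdkn1a, the p21 inhibitor of the cell cycle, rose as well, 4.67-fold from 7.59, 5.65 and 7.46 to between 8.53 and 9.61 (adjusted p = 0.0165).

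In growth signalling, 1 of 23 genes of the MAP kinase and EGF receptor list rose and 2 fell. Of 23 TGF-beta, BMP and activin genes 4 rose and 2 fell, and of 20 Notch and Hippo genes 2 rose and none fell. Over all genes 8.37% rose and 6.88% fell, and the genes named here are among those called. Phlda1, a feedback gene of growth factor signalling, fell 11.7-fold, from 11.33, 10.09 and 11.56 to 6.88, 6.41, 7.56, 8.33 and 8.07 (adjusted p = 0.00706). Ets2, a transcription factor downstream of MAP kinases, rose 4.14-fold (adjusted p = 0.00101). Tgfbr1 and Tgfbr2, the 2 receptors of TGF-beta, rose 2.41-fold (adjusted p = 0.00743) and 4.04-fold (adjusted p = 0.00224). Tgfbr2 read 8.46, 8.75 and 9.23 in controls and 10.22 to 11.13 in tumours. Tead1, the DNA-binding partner of YAP, rose 2.78-fold (adjusted p = 0.00416), and Anxa2, a membrane-binding annexin, read 8.19, 7.59 and 8.16 in controls and 11.34, 10.64, 11.67, 11.70 and 11.64 in tumours (10.7-fold, adjusted p = 0.000153).

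Interferon-stimulated genes, the antiviral programme that interferons switch on, were high in 4 tumours and lower in tumour 4. Of 26 measured, 13 rose and none fell (median 1.82), 18 rose and 1 fell without tumour 4, and 6 rose without control 3. Their mean level was 6.96, 7.18 and 7.75 in controls, 9.16, 9.53, 9.67 and 9.64 in tumours 1, 2, 3 and 5, and 7.83 in tumour 4. Rsad2, the antiviral enzyme viperin, read 7.61, 7.04 and 7.80 in controls and 11.21, 12.56, 12.57, 8.74 and 12.41 in tumours (16.1-fold, adjusted p = 0.0174). Ifit1, which binds viral RNA, read 5.76, 5.83 and 6.14 in controls and 9.53, 10.47, 10.88, 7.11 and 10.34 in tumours (13.5-fold, adjusted p = 0.016), and Ifit3, its relative, chosen after its values were seen, rose 8.94-fold (adjusted p = 0.0233). In all 3 genes tumour 4 lay between the controls and the other tumours.

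The promoters of these genes were searched for the core of the interferon-stimulated response element, GAAA, any 2 bases and GAAA on either strand. Each window was the 300 bases from 250 before to 50 after a start in RefSeq (GRCm38.p6). The core was found in 12 of the 19 list genes with a window (63.2%) against 3.44% of all 32851 windows. The list was made of known interferon-stimulated genes, so this share describes the list and not the tumours. A gene counted when any of its windows matched, so a share of genes and a share of windows are not on an equal footing. Among the 12 genes with it 5 rose, and among the 7 without it 4 rose, with median log2 differences of 1.65 and 1.74. A match is a description of these letters, not of a bound site. The windows of the 3 genes above are shown around their first match, which is in capitals, 5′ to 3′ on the strand of the gene, with positions given from the lower to the higher coordinate.
Rsad2, chr12:26456518-26456617, minus strand: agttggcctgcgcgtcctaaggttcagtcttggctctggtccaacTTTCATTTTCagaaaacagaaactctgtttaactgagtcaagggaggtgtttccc
Ifit1, chr19:34640740-34640839, plus strand: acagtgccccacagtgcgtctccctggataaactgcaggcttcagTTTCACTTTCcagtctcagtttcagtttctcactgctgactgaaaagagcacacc
Ifit3, chr19:34583328-34583427, plus strand: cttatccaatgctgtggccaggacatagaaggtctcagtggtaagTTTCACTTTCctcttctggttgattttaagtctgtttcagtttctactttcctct
The first matches lay 120, 104 and 156 bases before the start of Rsad2, Ifit1 and Ifit3, and all 3 were on the opposite strand.

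The same search of both strands was made for elements of 4 other groups. The CLEAR element of lysosomal genes, TCACGTGA, was in 5 of 27 lysosome genes with a window (18.5%) against 0.974% of all windows, and the sterol regulatory core TCACNCCAC in 1 of 21 cholesterol genes, against 1.24%. The antioxidant core, TGAC, any 3 bases and GCA, was in 2 of 16 NRF2 genes against 3.04%, and CCAAT in 28 of 40 cell cycle genes (70.0%) against 37.4%. Here too shares of genes are set beside shares of windows, and they describe the lists and not the tumours. Of 34 lysosome and autophagy genes 11 rose and none fell. Gla, the lysosomal alpha-galactosidase, rose 4.79-fold, from 5.58, 5.86 and 6.87 to 8.76, 8.43, 8.60, 7.12 and 8.90 (adjusted p = 0.019). Its window, with 2 matches to the element of which the first is in capitals, is shown because it rose most of the 5 genes that carry it.
Gla, chrX:134601181-134601255, minus strand: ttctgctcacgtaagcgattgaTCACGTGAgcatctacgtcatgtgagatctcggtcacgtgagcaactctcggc

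Antigen presentation genes rose without such a gap for class II. Of 19 measured, 12 rose and none fell (median 0.98), including 6 of 7 class II genes. H2-Ab1, a chain of the class II molecule that shows peptides to helper T cells, read 7.51, 8.20 and 8.06 in controls and 10.07, 10.07, 10.40, 10.38 and 10.37 in tumours (5.04-fold, adjusted p = 0.00192). H2-Aa, H2-Eb1 and Cd74, the invariant chain, rose 4.40-fold, 4.04-fold and 3.89-fold, and tumour 4 lay within or above the range of the other tumours for each. In the list of NF-kB and chemokine genes 14 of 38 rose and 1 fell, with 6 rises without control 3. Ubd, an ubiquitin-like protein induced by TNF and interferon-gamma, rose 19.6-fold, from 4.35, 4.30 and 5.16 to between 8.16 and 10.32 (adjusted p = 0.00263), and Cxcr4, a chemokine receptor, rose 8.19-fold (adjusted p = 0.0135). Cxcl10, an interferon-induced chemokine, read 4.71, 5.66 and 8.19 in controls and 10.01, 10.11, 10.93, 7.89 and 10.10 in tumours (adjusted p = 0.0284), so control 3 overlapped tumour 4.

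Most markers of recruited macrophages were higher in the tumours. Of 12 markers of the resident Kupffer cells 3 rose and 1 fell with all samples. Without tumour 4, 2 of these rose and 6 fell, and without control 3, 1 rose and 1 fell. As the tissue is a mixture of cells, fewer cells of a type and less RNA per cell cannot be told apart here. Of 15 markers of recruited macrophages and monocytes, 12 rose and none fell (median 1.65), and 4 rose without control 3. Their mean level was 6.97, 6.83 and 6.81 in controls and 9.21, 8.89, 9.66, 8.75 and 8.44 in tumours. Ms4a7 read 5.74, 5.54 and 5.34 in controls and 8.82, 8.70, 10.63, 8.93 and 8.62 in tumours (12.1-fold, adjusted p = 0.00568), Cd68, a lysosomal protein of macrophages, rose 4.60-fold (adjusted p = 0.0108), and Mmp12, macrophage elastase, rose 16.5-fold (adjusted p = 0.0221). Gpnmb rose 7.89-fold (adjusted p = 0.0156) and Ccr2, the receptor of incoming monocytes, 3.14-fold (adjusted p = 0.0305). Csf1r, shared by macrophages of all kinds, differed by -0.08 ± 0.35 (adjusted p = 0.889).

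Kupffer cells are the resident macrophages of liver sinusoids. The mean level of 12 Kupffer markers was 8.87, 8.78 and 8.90 in controls, 7.25, 7.45, 6.90 and 7.20 in tumours 1, 2, 3 and 5, and 9.0 in tumour 4. Cd163, the haemoglobin scavenger receptor, read 7.56, 7.68 and 8.07 in controls and 2.50, 3.49, 2.46, 3.36 and 4.09 in tumours (24.1-fold lower, adjusted p = 0.00115) and was low in tumour 4 too. Clec4f, the lectin that defines Kupffer cells in mice, read 9.52 to 9.73 in controls, 9.18 in tumour 4 and 5.54, 7.27, 5.19 and 6.88 in tumours 1, 2, 3 and 5 (adjusted p = 0.0655). Vsig4 and Timd4 followed the same order, with 9.51 and 6.23 in tumour 4 against 3.53 to 7.18 and 3.28 to 4.24 in the other 4 tumours. The complement genes C1qa, C1qb and C1qc, made by macrophages in general, rose 2.14-fold, 2.25-fold and 1.86-fold. With all samples 3 of the 12 rose and 1 fell, without tumour 4, 2 rose and 6 fell, and without control 3, 1 rose and 1 fell.

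Markers of sinusoidal endothelium, the fenestrated lining of liver capillaries, were lowest in tumours 3 and 5. Of 10 measured, 2 rose and none fell, without tumour 4, 2 rose and 3 fell, and without control 3 none rose or fell. Their mean level was 8.09, 8.24 and 7.99 in controls and 7.78, 7.97, 6.62, 8.26 and 6.86 in tumours. Clec4g, a lectin of these cells, read 9.62 to 10.08 in controls and 7.53, 8.52, 5.50, 9.04 and 6.25 in tumours (adjusted p = 0.106), with tumours 3 and 5 the lowest. Stab2, their hyaluronan scavenger receptor, read 8.54 to 8.89 in controls and 7.25, 7.68, 6.37, 8.54 and 6.63 in tumours (adjusted p = 0.0918). The exceptions were Lyve1 (6.07-fold higher, adjusted p = 0.0285) and Flt4 (2.18-fold higher, adjusted p = 0.0446), both also markers of lymphatic vessels. Among 15 markers of capillaries and larger vessels, Esm1 and Cd34 rose (6 rose without tumour 4 and 1 without control 3), Cd34 from 4.96, 4.55 and 4.71 to 7.22, 7.11, 9.10, 6.51 and 7.11 (6.39-fold, adjusted p = 0.0198).

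**Figure D4:**
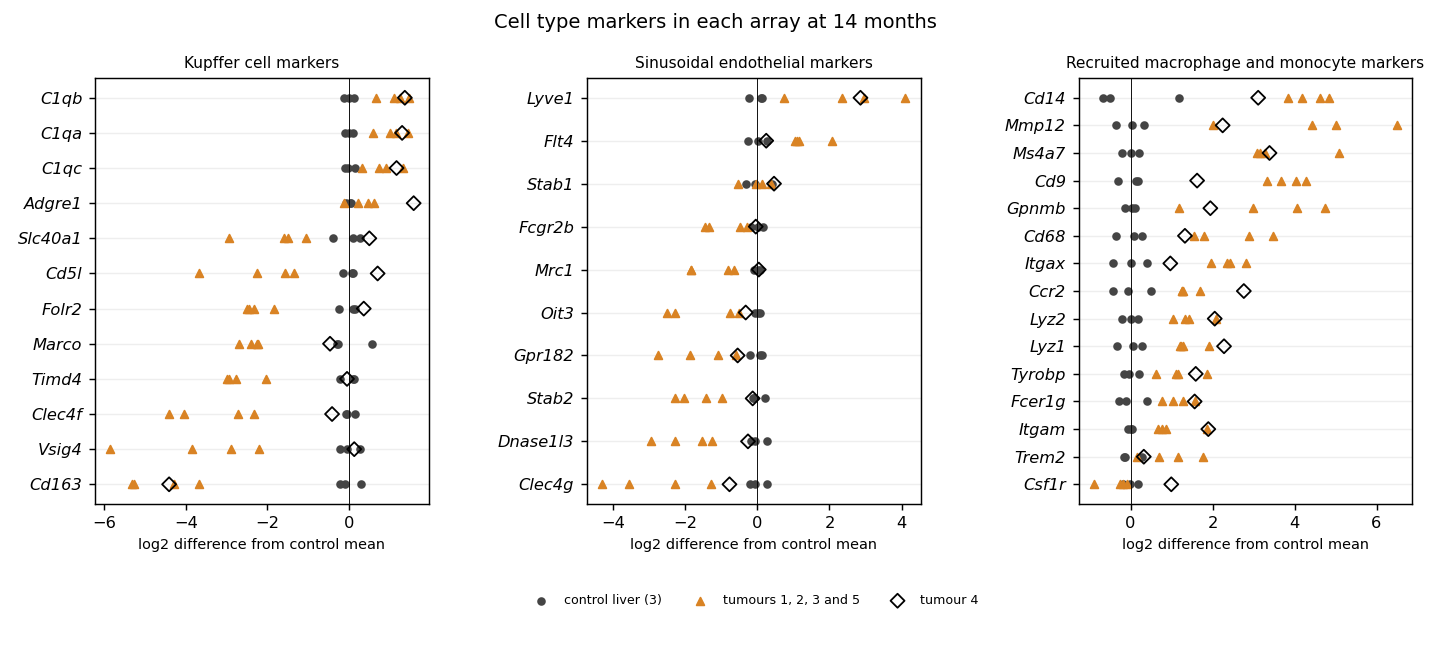
Log2 difference from the control mean (x axis) of each marker gene (rows) of Kupffer cells (12 genes, left), sinusoidal endothelium (10, middle) and recruited macrophages and monocytes (15, right), with circles for the 3 control livers, triangles for tumours 1, 2, 3 and 5 and open diamonds for tumour 4, all at 14 months. For most Kupffer genes the triangles lie left of the controls and the diamond near them, while most recruited macrophage genes have all 5 tumours on the right.

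Extracellular matrix genes included 14 rises and no falls among 47 (median 1.19), with 8 rises without control 3, and tumour 3 had the highest mean level (8.60, against 6.45 to 6.74 in controls and 7.33 to 7.91 in the other tumours). Col4a1, of basement membranes, read 7.63, 7.35 and 7.58 in controls and 10.18, 10.03, 11.73, 9.79 and 10.40 in tumours (7.49-fold, adjusted p = 0.00307). Mmp13, a collagenase, rose 11.4-fold (adjusted p = 0.0145) and Plat, tissue plasminogen activator, 8.0-fold (adjusted p = 0.00602). Of 13 myofibroblast markers 3 rose, and 1 rose without either tumour 4 or control 3. Col3a1, of fibrillar collagen, read 8.26, 7.02 and 8.76 in controls and 9.26, 9.95, 12.09, 11.34 and 11.12 in tumours (adjusted p = 0.0432). Col1a1 read 4.96 to 6.07 in controls and 6.72, 7.40, 10.42, 9.11 and 8.85 in tumours, above all controls, with an adjusted p of 0.0516. Acta2, the actin of contractile myofibroblasts, overlapped between the groups (adjusted p = 0.263). Of 11 stellate cell markers none rose and 1 fell, Ecm1 (2.44-fold, adjusted p = 0.0186), with 4 falls without tumour 4.

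Markers of most other cell types changed in few genes. Of 8 adipocyte markers, however, 2 rose and 2 fell, and 1 rose and 1 fell without control 3. Of 11 natural killer and cytotoxic, 9 B cell and 8 plasma cell markers, 2, 1 and 1 rose and none fell. No marker of these 3 lists was called without control 3. Over all genes 8.37% rose and 6.88% fell with all samples. None of 11 T cell markers passed in limma's test, and none had an unadjusted p under 0.05: Cd3e read 5.99 to 6.27 in all 8 samples and Cd8a 5.25 to 5.62. Nor did any of 8 dendritic cell, 7 mast cell or 8 pancreatic acinar markers pass, of which 1, 2 and 0 had an unadjusted p under 0.05. Among 10 neutrophil markers S100a8 and S100a9, calcium-binding proteins also made by monocytes, rose 3.34-fold (adjusted p = 0.0338) and 3.19-fold (adjusted p = 0.0366), and neither call held without control 3, while Cxcr2, a neutrophil receptor, read 4.66 to 5.18 in controls and 4.11 to 4.84 in tumours. Of 10 cholangiocyte markers only Tspan8 rose, a call that was lost when its probe sets were averaged. Krt19, the keratin of bile ducts, read 4.81 to 5.80 in controls and 4.48 to 5.86 in tumours. Among erythroid and platelet genes, Slc4a1 read 8.39 and Ppbp 9.46 in tumour 3, against no more than 6.07 and 5.97 in any other sample at this age.

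The median SD of a gene was 0.23 over the 5 tumours, 0.20 over the 4 without tumour 4 and 0.15 over the 3 controls. An SD over 3 samples tends to come out smaller than one over 5, so these values are not on an equal footing. None of the 12 genes with the widest spread among well-expressed genes passed limma's test between groups (6 had an unadjusted p under 0.05). In 7 of the 12, tumour 4 was the tumour farthest from the median of the 5. Cyp2c55 read 13.11 in tumour 4 and 5.09 to 6.23 in the other tumours, against 7.27 to 9.15 in controls. Cyp4a12a, a male-biased hydroxylase, read 12.50 in tumour 4, within the control range of 12.36 to 12.82, and 5.02 to 9.09 in the others. Cyp11a1, the enzyme that begins steroid hormone synthesis, showed the reverse: it read 3.88 to 3.98 in controls, 3.92 in tumour 4 and 8.91, 11.60, 11.15 and 8.49 in tumours 1, 2, 3 and 5. Cyp2b13 read 11.94 in tumour 4 and 5.28 to 6.77 elsewhere, controls included. Fmr1nb varied in another way, high in tumours 1 and 2 (10.89 and 11.20), at 7.66 in tumour 5, at 6.40 in tumour 3 and at the control level in tumour 4 (4.82).

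Tumour 4 nevertheless shared most of the called changes. Across the 1523 higher calls its shift from the control mean was a median 0.82 of that of the other 4 tumours, and across the 1252 lower calls 0.88. For tumours 1, 2, 3 and 5 the same measure lay between 1.0 and 1.09. Tumour 4 lay within the control range for 51 higher and 21 lower calls, and each other tumour for 3 to 10 and 5 to 19. As all 5 tumours took part in choosing these calls, the shares are descriptions.

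At 11 months, with 3 tumours and 2 controls, 349 genes (1.92%) were called, 238 higher (1.31%) and 111 lower (0.610%). Among these calls 308 were also called in the same direction at 14 months, which is 88.3% of the 11-month and 11.1% of the 14-month calls. The 2 ages used different samples but were fitted with 1 estimate of spread, and control 3 at 14 months is nearly the same as a control at 11 months: without both, 35 genes were called at 11 months and 874 at 14 months. As the spread was shared, leaving out any one of controls 1 to 3 or tumours 1 and 2 of the 14-month groups left 165 to 220 calls at 11 months. Of the 2775 genes called at 14 months, 96.8% had the same sign at 11 months, against 76.6% of all genes. Across all genes the 2 sets of differences had a Pearson r of 0.85, and of 0.82 without the pair of nearly identical controls, as a description, since genes are not independent.

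Several genes had differences of close size at both ages. Igf2 differed by 6.64 at 11 months and 6.18 at 14 months, Hsd3b5 by -7.95 and -7.85, Slco1a1 by -6.41 and -6.55, and Fundc2 by 1.99 and 2.21. Afp differed by 4.86 at 11 months (adjusted p = 0.022), with tumours at 10.44, 8.22 and 12.18. In the test of the difference between ages none of 18193 genes passed in limma (lowest adjusted p 0.999), and 544 had an unadjusted p under 0.05. The genes nearest to it included Tmem267, a transmembrane protein, at -2.31 at 11 months (adjusted p = 0.0182) and -0.17 at 14 months (adjusted p = 0.721). That no gene passed does not show that the ages were alike.

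**Figure D5:**
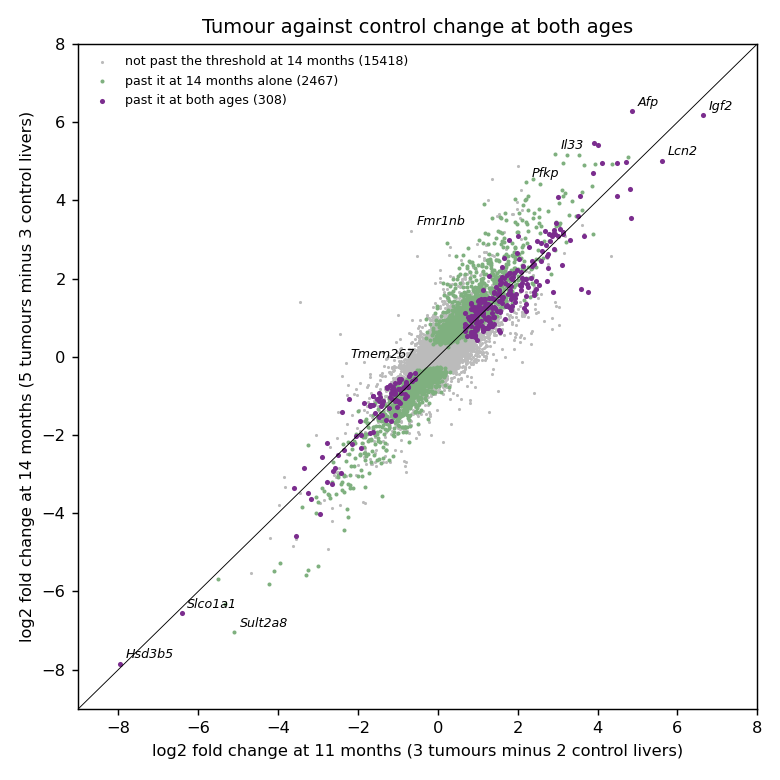
Log2 fold change of tumours over control livers at 11 months (x axis; 3 tumours, 2 controls) against that at 14 months (y axis; 5 tumours, 3 controls), 1 point a gene, with genes called at 14 months alone in green, those called at both ages (308) in purple, the rest in grey and the line of equal change drawn. Points run along the line (Pearson r 0.85 across genes), and Hsd3b5 and Igf2 lie near its ends.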

How the data were processed

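The deposited table holds log2 values that the authors made by robust multi-array averaging (RMA) in Partek, per the submitters' processing notes and the series' design text. No raw intensities were analysed here, so depth and detection above background are unknown, and the number of arrays limits the precision. The table has 45101 probe sets on 13 arrays, with 64 array controls removed. Probe sets were named through the platform annotation and RefSeq: 34945 had 1 gene, 932 several and 9160 none, and symbols of 34741 were updated. Each of the 18193 genes was represented by its probe set with the highest mean over all 13 arrays, and 9010 genes had more than 1. The probe sets of a gene did not always change alike, which is given above for some genes only.

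limma 3.58.1 (lmFit and eBayes, R 4.3.3) was fitted to all 13 arrays with 1 mean per group, with Benjamini-Hochberg adjustment over the 18193 genes and a threshold of 0.05. The standard errors (SE) use limma's moderated spread. On simulated data for the 14-month comparison (18193 genes) the fit found 22%, 72%, 86% and 90% of shifts of 0.5, 1, 1.5 and 2 on the log2 scale, with 3 false calls among 138. The simulated arrays had independent noise, with the same spread of a gene in all groups, and few shifted genes. They held no array set apart and no nearly identical pair, so these rates may not hold for the data. Replicates were numbered in accession order. Genes were named mostly from a pool set by rule, and not every gene of the pool is named above. The pool held the 15 largest rises and falls without overlap. Each list gave up to 4 changes in the main direction and 2 in the opposite, or its 2 smallest p where fewer passed. It also held all measured members of the target, fetal, transcription factor and cell type lists, and the 3 genes nearest a difference between ages. The 12 genes with the widest spread among tumours and some isoforms completed the pool. The members, lists and rules were chosen with earlier results of these data known. Alternatives changed the probe set, scaling, spread estimate, threshold and samples. Promoter sequences are RefSeq's. The mir-122 transcript itself was not analysed here.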

Additional observations from a re-analysis of the deposited data

Results flagged for a closer look

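Among the genes named above, 19 had 1 tumour far from the other 4, with a gap to its nearest neighbour above 0.71 of the range of the 5. Over all 18193 genes 1317 (7.24%) had such a tumour, and chance marks about 1 gene in 20. Tumour 4 was the one apart in 622 of the 1317, tumour 3 in 230, tumour 5 in 213, tumour 1 in 156 and tumour 2 in 96.

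Tumour 4 lay nearer the controls than the other tumours in several genes that rose. It read 6.51 for Il33, against 10.97 to 11.90 in the other 4, 8.38 for Slpi against 12.86 to 13.23, 5.93 for Pfkp against 10.10 to 10.90, and 8.69 for Cdc42ep5 against 11.04 to 11.53. It also read 7.73 for Ifit3 against 10.30 to 11.10, 9.35 for the steroid hydroxylase Cyp17a1 against 11.68 to 12.63, and 7.12 for Gla against 8.43 to 8.90.

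Among genes that fell, tumour 4 kept 8.72 for Mup10 against 4.09 to 5.17, 5.98 for Serpina4-ps1 against 4.17 to 4.41, 10.04 for Klkb1 against 7.28 to 7.86, and 12.18 for the growth hormone receptor Ghr against 11.13 to 11.43. It stood above both the other tumours and the controls for Cyp2c55 (13.11), Cyp2b13 (11.94) and Gpc3 (5.03).

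Tumour 3 stood above the other 4 tumours for the vessel marker Cd34 (9.10 against 6.51 to 7.22), the macrophage marker Ms4a7 (10.63 against 8.62 to 8.93), the platelet chemokine Ppbp (9.46 against 4.62 to 5.74) and the filament gene Vim (11.16 against 9.56 to 9.95). Tumour 1 stood above for the hexokinase Hk2 (9.47 against 7.13 to 7.66). What sets these tumours apart was not tested.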

How the results depend on the processing

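Counts of calls depended more on the samples than on the probe sets or scaling. At 14 months the 2775 calls ranged from 922 to 3537 over the 8 fits that left out 1 array, and at 11 months the 349 ranged from 165 to 402. The 14-month count was 754 with control 3 left out and tumours 1 and 2, whose titles carry no animal number, averaged, 249 with arrays numbered in their titles alone and, chosen after seeing the data, 874 without both nearly identical controls. It was 5659 with array weights, 4844 over all 45037 probe sets, 657 at an adjusted p under 0.01 and 1199 with a change of at least 2-fold. The 11-month count was 232 with tumours 1 and 2 averaged, 106 with control 3 also left out, 55 with those numbered arrays, 206 without control 3 and tumour 4 and 35 without both nearly identical controls, the last 2 chosen after seeing the data, and 42 at an adjusted p under 0.01. The causes were not tested, beyond the smaller number of samples in several of these fits. The difference between ages gave 0 calls in every alternative run.

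Of the 198 genes named above, 143 passed at 14 months, and 57 of these passed in all 8 fits that left out 1 array. Over 4528 pairs of a named gene and an alternative, 3728 kept the side of the threshold and 0 reversed a call. Another 743 kept the direction but no longer passed, and 57 newly passed. The 3728 include 90 changes of sign, all in genes that did not pass. Among the 55 genes that did not pass, 24 changed sign under at least 1 alternative.

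No paired analysis was possible because the replicate numbers come from accession order and the labels tie no tumour to a control animal. Signal over background could not be read from the deposited values, so low levels are not known to be above it.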
